A study of Oncorhynchus mykiss with 6 samples.

Results

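Epithelial microRNAs of the miR-200, miR-141 and miR-429 families were followed in the livers of 150-day-old female rainbow trout (Oncorhynchus mykiss). Control fish were kept at 18 °C. Heat-stressed fish had their water warmed by 1 °C a day up to 24 °C. Each temperature gave 3 libraries, and no allele, diet or drug separated the groups. Per the labels the liver was taken from more fish than there are libraries, and which fish entered a library is not said, so every p-value rests on the spread among these 6 libraries, part of which may be technical. The members were all names that read miR-200, miR-141 or miR-429 once the final x, y or z is removed. This gave 7 of the 2730 listed names, and 5 of the 651 names that passed the count filter.

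The miR-200 family is known in vertebrates as a mark of epithelial cells. Its members bind the messages of ZEB1 and ZEB2, transcription factors that repress E-cadherin, and through them keep cells in the epithelial state, while ZEB1 and ZEB2 in turn repress the miR-200 genes. In mammals miR-200b, miR-200a and miR-429 come from one gene cluster and miR-200c and miR-141 from another. In the mammalian liver the family is mostly found in the bile duct epithelium rather than in hepatocytes. A microRNA is cut from both arms of a hairpin, and a target is recognised mainly through the seed, bases 2 to 8 of the mature strand.

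The sequences are shown because the members are told apart by very few bases. They are given as the deposited files list them, with T for U, 5′ to 3′, and with the seed in capitals.
miR-200-y: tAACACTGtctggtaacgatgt
miR-141-y: tAACACTGtctggtaacgatg
miR-200-z: tAACACTGtctggtaatgatgt
miR-429-y: tAATACTGtctggtaatgccgt
miR-200-x: cATCTTACctgacagtgctgga
miR-141-x: cATCTTACctgacagtgctcgg
miR-429-x: tACCAGACaagtttggatc

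Positions are counted from 1 at the 5′ end, with miR-200-y as the reference. miR-141-y carried no substitution over its 21 bases and was 1 base shorter at the 3′ end, so the 2 names differ only in length. miR-200-z differed by C17T alone. miR-429-y differed by C4T, C17T, A19C and T20C, of which C4T lies in the seed. The y and z names therefore fell into 2 seed groups, AACACTG for miR-200-y, miR-141-y and miR-200-z and AATACTG for miR-429-y. In mammals the first seed is that of miR-200a and miR-141, and the second that of miR-200b, miR-200c and miR-429. No name that reads miR-200 or miR-141 was listed with the second seed. The files show 1 sequence per name and do not say whether reads of other sequences were counted under it. The split of reads between near-identical names, and between the 2 seeds, is therefore uncertain.

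The x names were compared with the y and z names by predicted pairing. In a predicted duplex (RNAduplex), miR-200-x formed 16 base pairs with miR-200-y and 16 with miR-200-z, against 12 with miR-429-y. miR-141-x differed from miR-200-x by G20C and A22G and gave the same 16 pairs with miR-200-y. The listed 19-base miR-429-x formed 9 pairs with miR-429-y and 11 with each of the other y and z members. The hairpins themselves were not determined. The files do not define the letters x, y and z.

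Outside the members, 4 names shared a seed with one of them, and all were rare. miR-8-y, named for the invertebrate miR-8 that is related to miR-200, differed from miR-200-y by T11A and had 70 counts over the 6 libraries. miR-236-y, with T11A and C17T, had 16 counts. miR-8-x shared the seed of miR-200-x and had 8, and 1 predicted sequence shared that of miR-429-x and had 35.

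The libraries held 9267658 to 12778484 counts. Control replicate 2 and heat replicate 1 held the most, 11894384 and 12778484, against at most 11117223 in the others. They also stood apart with TMM scaling factors of 1.25 and 1.24 against 0.87 to 0.92. In these 2 libraries 2077 and 2157 names were detected, against 1579 to 1701. The part of library size in the names detected was not tested. In control replicate 2, 42 of the 249 tested names of known families lay more than 1 log2 unit above the mean of the other 5 libraries, while the median of all 249 lay 0.17 above it. The label of liver was checked against hepatocyte microRNAs such as miR-122. The 13 names of that list summed to 239096 to 397852 CPM in control and 256023 to 395248 in heat. Levels are given as CPM, counts per 1000000 of TMM-scaled library size.

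The family as a whole was a small part of the liver profile, and its share was highest in control replicate 2. Library values are given in the order of the replicate numbers throughout. The 7 names together took 0.222%, 0.779% and 0.344% of all counts in the controls and 0.504%, 0.264% and 0.242% in the heat libraries. The exact binomial 95% interval, which covers counting error only, was 0.774% to 0.784% for control replicate 2. On the CPM scale the sum was 2429, 6225 and 3858 in control and 4070, 3032 and 2667 in heat. The means were 4171 ± 1917 and 3256 ± 728 CPM (SD, n = 3), and the groups overlapped. Without control replicate 2 the control mean was 3144 CPM. In a bulk tissue, the number of epithelial cells and the amount of these RNAs per cell cannot be told apart.

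The 22-base miR-200-y was the main product in all 6 libraries, with 72.5% to 80.3% of the family's counts. Its counts were 17313, 67197 and 29212 in the controls and 51573, 18663 and 18918 in the heat libraries. In CPM these were 1951, 4513 and 2950 against 3257, 2314 and 2033. The highest library was a control and the lowest was also a control, so all 3 heat libraries lay inside the control range. By counts it ranked 23rd to 32nd of all names, depending on the library.

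miR-141-y, the same sequence without its last base, followed at 398, 758 and 731 CPM in control and 622, 597 and 528 CPM in heat. Here too the heat libraries fell within the control range. Of the counts of the 2 names together, miR-141-y held 16.9%, 14.4% and 19.9% in control and 16.04%, 20.5% and 20.6% in heat. The lowest share was in control replicate 2 (exact binomial 95% interval 14.1% to 14.6%) and the next in heat replicate 1 (15.8% to 16.3%), the 2 libraries that stood apart.

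miR-200-z, which differs from miR-200-y by the single base C17T, varied far more. Its counts were 553, 12602 and 1522 in control and 2373, 794 and 788 in heat. Its levels were 62.3, 846 and 154 CPM in control and 150, 98.5 and 84.7 CPM in heat. The groups overlapped: 5 libraries spread over 62.3 to 154 CPM, and control replicate 2 lay 7.84 times above the mean of the other 2 controls. In that library miR-200-z passed miR-141-y, and in the other 5 the order of levels was miR-200-y, miR-141-y, miR-200-z, then miR-429-y, with miR-200-x last.

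miR-429-y, the member with the second seed, showed the same picture at a lower level. It measured 11.3, 98.3 and 17.8 CPM in control and 29.2, 18.2 and 16.8 CPM in heat, from 100 to 1463 counts per library. Control replicate 2 was 6.77 times above the mean of the other controls, and heat replicate 1 was the second highest. By listed sequence, the names with the first seed, miR-8-y and miR-236-y included, summed to 62.3 to 216 times the counts of miR-429-y. The smallest ratio was in control replicate 2. Whether reads with the second seed were counted under those names is not known.

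**Figure D1:**
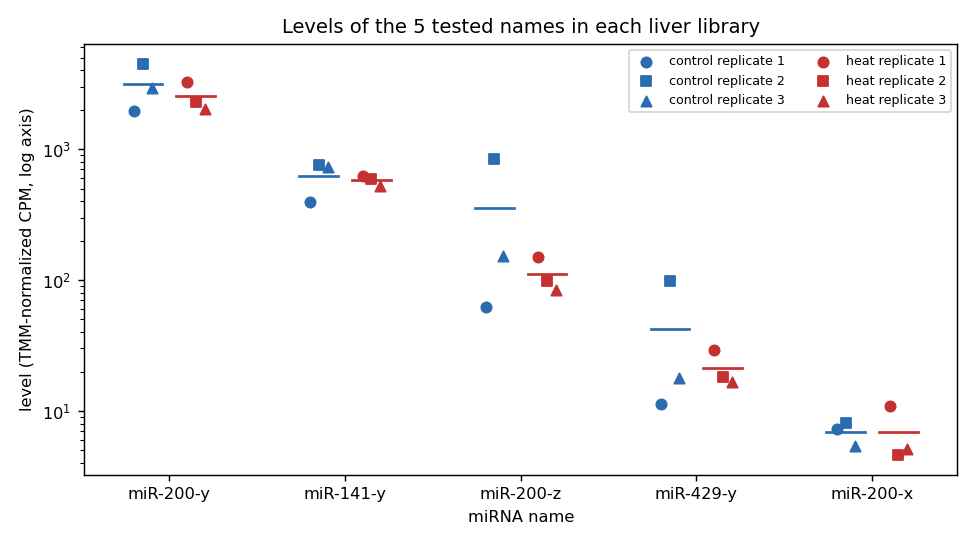
Level of each of the 5 tested names (TMM-normalized CPM, log axis) in the 3 control and 3 heat libraries; symbols mark the replicate and short lines the group means. Control replicate 2 (square) is the highest library for the y and z names, at 4513 CPM for miR-200-y, 758 for miR-141-y, 846 for miR-200-z and 98.3 for miR-429-y, and the groups overlap for every name.

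The x names were scarce. miR-200-x stood at 7.32, 8.06 and 5.35 CPM in control and 10.9, 4.59 and 5.16 CPM in heat, from 37 to 173 counts. This was 1.79 to 3.75 counts per 1000 counts of miR-200-y. Unlike miR-200-z, it was not raised in control replicate 2 beyond the other libraries, and its highest value was in heat replicate 1. miR-141-x was counted 15 times in control replicate 2 and 10 times in heat replicate 1, the 2 libraries with the most counts. It was at 0 in the other 4 libraries, where the limit for a count of 0, taken as 3 counts, came to 0.303 to 0.372 CPM. The smallest count above 0 was 2, so a listed 0 may stand for 1 read and this limit may be too low. miR-429-x had 2 counts each in control replicate 2 and heat replicate 1 and 0 elsewhere. These 2 names did not pass the count filter and were not tested.

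Between 24 and 18 °C, 0 of the 5 tested members passed the edgeR quasi-likelihood test at a Benjamini-Hochberg adjusted p of 0.05. Over the whole table edgeR called 0% of the 651 names, and 20 names (3.07%) had an unadjusted p under 0.05. DESeq2 called 2 of 2724 names, or 2 of 649 after the count filter, and limma-voom with quality weights called 0. In the edgeR fit of the 651 names 0 members had an unadjusted p under 0.05. Such values were rare among known names: with the 249 fitted alone, edgeR gave 2 and called 0. DESeq2 gave miR-200-z an unadjusted p of 0.0186 on all names (adjusted p = 0.999) and of 0.0227 after the count filter (adjusted p = 0.737). The fitted log2 fold change was below 0 for 4 of 5 members, with a median of -0.31, while it was below 0 for 52.8% of all tested names with a median of -0.02, and for 64.7% of the 249 known names with a median of -0.12. For 0 of 5 members did the heat libraries lie wholly below or wholly above the controls, against 3.07% and 5.22% of all tested names. These shares count some predicted sequences more than once, under several names. The members are not separate observations either, as miR-141-y is miR-200-y less 1 base and miR-200-z differs from it by 1 base. Without control replicate 2 the 4 values below 0 turned to 0.036 for miR-200-y, 0.036 for miR-141-y, 0.024 for miR-200-z and 0.55 for miR-429-y. With each sequence counted once, edgeR tested 476, of which 10 had an unadjusted p under 0.05 and 0 were called.

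The main member miR-200-y showed a fitted difference of -0.31 ± 0.35 in log2 (SE; 95% interval, -1.11 to 0.49; edgeR adjusted p = 0.995). For miR-141-y the value was -0.11 ± 0.29, with an interval of -0.79 to 0.57, which leaves out a 2-fold change in either direction. That holds for the TMM-scaled fit. With library totals alone miR-141-y was at -0.15 with a larger SE of 0.42. miR-200-x had a fitted difference of 0.00 ± 0.46 (-1.06 to 1.06). The interval of miR-200-y leaves out a 2-fold rise but not a 2-fold fall, and that of miR-200-x leaves out neither.

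The widest estimates belonged to the 2 members that control replicate 2 raised most. For miR-200-z the log2 fold change was -1.67 ± 0.85 (SE; 95% interval, -3.65 to 0.30; edgeR unadjusted p = 0.0858, adjusted p = 0.995). Its mean level was 354 ± 428.8 CPM at 18 °C and 111 ± 34.4 CPM at 24 °C (SD, n = 3). For miR-429-y it was -0.99 ± 0.77 (SE; -2.77 to 0.79), and its mean level was 42.4 ± 48.5 CPM at 18 °C and 21.4 ± 6.78 CPM at 24 °C (SD, n = 3). Without control replicate 2 these became 0.02 ± 0.45 for miR-200-z and 0.55 ± 0.41 for miR-429-y, with control means of 108 and 14.5 CPM. The values of miR-200-y, miR-141-y and miR-200-x without that library were 0.04 ± 0.28, 0.04 ± 0.29 and 0.11 ± 0.49 (SE). Without heat replicate 1 as well, miR-200-z was at -0.27 ± 0.48, miR-429-y at 0.23 ± 0.37 and miR-200-x at -0.41 ± 0.38. In that fit miR-200-y was at -0.21 ± 0.25 and miR-141-y at -0.04 ± 0.33 (SE). No member passed the test in any of these fits.

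**Figure D2:**
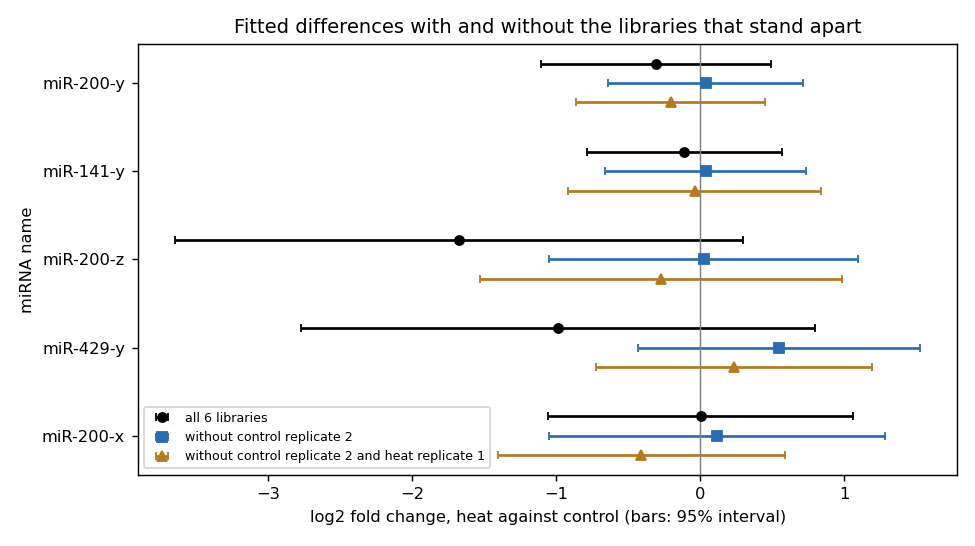
Fitted log2 fold change of heat against control for each tested name with its 95% interval, from all 6 libraries, without control replicate 2, and without control replicate 2 and heat replicate 1. With all libraries miR-200-z lies at -1.67 and miR-429-y at -0.99, and without control replicate 2 they lie at 0.02 and 0.55; every interval includes 0.

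Proportions between members do not depend on library scaling. Those of miR-200-z and miR-429-y to miR-200-y set control replicate 2 apart again. For every 100 counts of miR-200-y the controls held 3.19, 18.8 and 5.21 counts of miR-200-z and the heat libraries 4.60, 4.25 and 4.17. Heat libraries thus lay within 4.17 to 4.60, between the other 2 controls. The share of miR-200-z in the family was 13.6% in control replicate 2 (exact binomial 95% interval 13.4% to 13.8%) and 2.57% to 3.98% in the other 5 libraries. In log2, the ratio of miR-200-z to miR-200-y averaged -3.88 ± 1.32 at 18 °C and -4.53 ± 0.08 at 24 °C (SD, n = 3; two-sided exact permutation p = 0.7).

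One proportion was higher in all 3 heat libraries than in any control. miR-429-y had 18.1, 11.6 and 11.6 counts per 100 counts of miR-200-z in control and 19.5, 18.5 and 19.8 in heat. In log2 this ratio averaged -2.89 ± 0.37 at 18 °C and -2.37 ± 0.05 at 24 °C (SD, n = 3), a difference of 0.52. Its two-sided exact permutation p was 0.1, the smallest that 3 libraries against 3 can give, and 1 after Benjamini-Hochberg adjustment over the 10 member pairs compared. Control replicate 1 had only 100 counts of miR-429-y. Its share of the 2 names together, 15.3% (exact binomial 95% interval 12.6% to 18.3%), overlapped the intervals of the heat libraries, which ran from 13.4% to 19.1%. For the other 9 pairs the exact permutation p lay between 0.5 and 1.

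**Figure D3:**
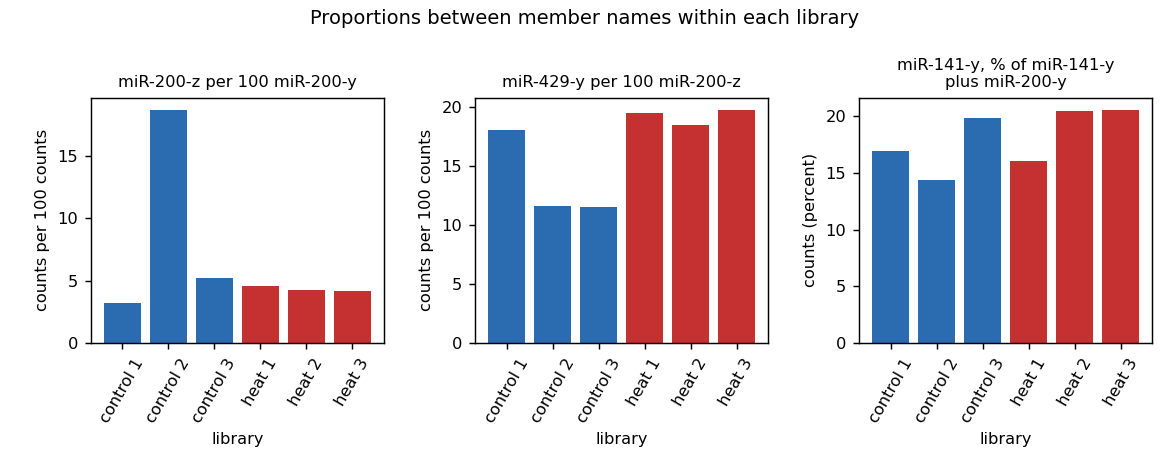
Bars give, for each library, counts of miR-200-z per 100 counts of miR-200-y, counts of miR-429-y per 100 counts of miR-200-z, and the percent that miR-141-y holds of miR-141-y plus miR-200-y. The first panel shows 18.8 in control replicate 2 against 3.19 to 5.21 elsewhere, and the second shows 18.5 to 19.8 in heat against 11.6 to 18.1 in control.

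Over all 6 libraries, control replicate 2 included, the pattern of miR-200-z was nearer to that of miR-429-y than to that of miR-200-y. Likeness was measured as the root mean square difference of log2 CPM (0.5 added) after each name was centred on its own mean. Smaller values mean more similar profiles, and names of like direction but unlike size of swing are set apart. The value was 0.34 between miR-200-z and miR-429-y, smaller than between miR-200-z and any of the 244 tested known names outside the family. It was 0.83 between miR-200-z and miR-200-y, which would rank 15th beside the 244 names, and 0.24 between miR-200-y and miR-141-y. These are descriptions over 6 libraries that share the same scaling, with control replicate 2 as the widest excursion. There miR-200-z lay 2.52 above its own mean, miR-429-y 2.03 and miR-200-y 0.73. In control replicate 3 the values were 0.06, -0.41 and 0.12, with miR-200-z nearer to miR-200-y. Likeness was not computed without control replicate 2, so the grouping is not shown for the other libraries.

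The known names nearest to miR-200-z were miR-725-y (0.38), miR-725-x (0.49) and miR-20-x (0.63). Those nearest to miR-429-y were again miR-725-x (0.30), miR-20-x (0.30) and miR-725-y (0.41). For miR-429-y, miR-200-z (0.34) would rank 3rd beside the 244 names, after miR-725-x and miR-20-x. miR-725-y measured 10.8, 150 and 12.1 CPM in control and 20.5, 12.5 and 12.4 CPM in heat. Among the 249 tested known names, the excess of control replicate 2 over the mean of the other 5 libraries was largest for miR-725-y, at 3.45 log2 units. miR-200-z ranked 4th at 3.02 and miR-429-y 9th at 2.43, whereas miR-200-y ranked 51st at 0.88, miR-141-y 92nd at 0.43 and miR-200-x 104th at 0.32.

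The names nearest to the other members were different ones. For miR-200-y they were miR-726-y (0.22), miR-24-x (0.23) and miR-137-y (0.25), and for miR-141-y they were miR-192-z (0.19), miR-6134-y (0.19) and miR-30-y (0.23). For miR-200-x they were miR-3618-x (0.10), miR-99-y (0.15) and miR-1338-y (0.15). The median over all 244 names was 0.53 for miR-200-y and 1.22 for miR-200-z.

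**Figure D4:**
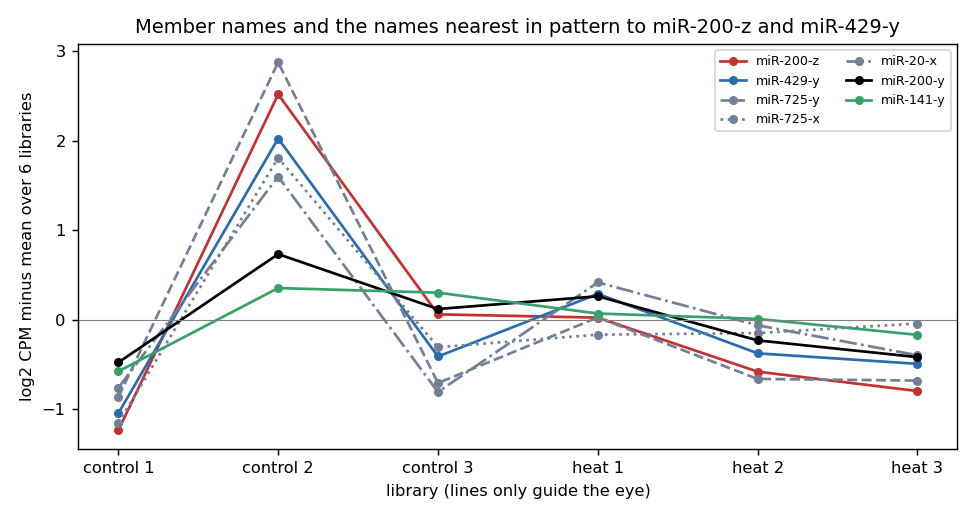
Log2 CPM of each name minus its mean over the 6 libraries, for 4 members and for the 3 known names nearest to miR-200-z and miR-429-y. miR-429-y, miR-200-z, miR-725-y, miR-725-x and miR-20-x peak in control replicate 2. miR-200-y and miR-141-y are also highest there but stay between -0.57 and 0.73 in all libraries.

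Other epithelial microRNAs were far less abundant than miR-200-y. The list held miR-203 of stratified epithelium, miR-205, the miR-183, miR-96 and miR-182 cluster of sensory epithelia, miR-34 and miR-449 of ciliated cells, miR-31 and miR-8. Of its 15 names 7 were tested and 0 were called by edgeR. Fitted values were below 0 for 6 of 7, against 64.7% of the 249 tested known names. The median log2 fold change of the 7 was -0.22, against -0.12 for the known names. None of the 7 had an unadjusted p under 0.05 in edgeR, and only 2 of the 249 known names did when fitted alone. Its summed level was 129 to 365 CPM in control and 231 to 376 CPM in heat. miR-203-y measured 53.1, 265 and 116 CPM in control and 282, 203 and 146 CPM in heat, a log2 fold change of 0.54 ± 0.55 (SE). It was high both in control replicate 2 and in heat replicate 1. miR-96-x was at 27.1 CPM in control replicate 2 and 6.42 to 13.1 elsewhere, and miR-34-x at 12.2 against 2.59 to 5.45. miR-183-x was at 36.4 CPM both there and in heat replicate 3. miR-182-x, at 4.97 CPM in control replicate 2, and miR-449-x, at 3.96 CPM, were not raised in that library. miR-205-x went the other way, with its lowest level of 8.19 CPM in control replicate 2 against 17.6 to 73.8 in the other libraries. miR-449-x and miR-34-x had the lowest p of the list, with log2 fold changes of -0.77 ± 0.49 and -0.76 ± 0.57 (SE).

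Acinar pancreas microRNAs had their highest level in the same library as miR-200-z and miR-429-y. This was not particular to them, as 42 of the 249 tested known names lay more than 1 log2 unit above the other libraries there. The excess was 3.16 for miR-217-x, and outside this list 3.33 for miR-107-x and 2.96 for miR-8159-x. In many fish pancreatic tissue lies close to the liver. The acinar miR-217-x measured 9.69, 45.0 and 5.05 CPM in control and 9.41, 2.85 and 1.29 CPM in heat, and miR-216-x measured 85.5, 193 and 34.4 against 134, 37.9 and 12.5. Both were highest in control replicate 2, and miR-216-x was next highest in heat replicate 1. The islet microRNA miR-375-y did not, at 98.6, 105 and 111 CPM in control and 145, 142 and 194 CPM in heat, and miR-7-x was highest there at 184 CPM against 60.2 to 101. The 7 names of the list, with 6 tested, summed to 255 to 537 CPM in control and 277 to 360 in heat. Of these names miR-216-y was at 0 in 5 libraries and miR-375-x in 1. edgeR called 0 of the 6, with 4 of 6 below 0 and a median of -0.33, against 64.7% and -0.12 for tested known names. The part of the pancreas names in the levels of miR-200-z and miR-429-y was not tested.

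The shift in control replicate 2 differed between the lists and also within them. Erythrocyte miR-486-x, for example, lay 2.96 log2 units above the mean of the other 5 libraries in control replicate 2. The median excess of that library over the other 5 was 1.29 log2 units for pancreas names, 0.76 for leukocyte names, 0.74 for other epithelial names and 0.88 for the 5 tested members. It was 0.40 for muscle, 0.25 for retina and neural, 0.24 for erythrocyte, 0.09 for hepatocyte and -0.10 for endothelial and stromal names. In summed CPM the hepatocyte list was nevertheless lowest in control replicate 2 (239096 CPM) and next lowest in heat replicate 1 (256023 CPM). Set against miR-122-x alone, the members' counts came to 0.822%, 4.22% and 1.20% of its counts in control and 2.18%, 1.03% and 0.975% in heat. The order of libraries was thus control replicate 2, then heat replicate 1, then the other 4, whichever scale was used for the family sum. These scales are not independent. miR-122-x itself was lowest in those 2 libraries, at 147681 and 186905 CPM, against 273618 to 321234 CPM elsewhere. On the CPM scale the family sum in heat replicate 1 (4070) was close to that in control replicate 3 (3858).

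The summed level of the leukocyte list was 16856 to 32592 CPM in control and 16767 to 18605 in heat. Most of it was miR-146-x, at 30042 CPM in control replicate 2. There miR-142-x, at 2183 CPM, was below control replicate 1 (2553), and miR-150-x had its lowest level, 39.9 CPM. All 8 of the tested leukocyte names had a fitted value below 0, with a median of -0.45. For comparison, 64.7% of the 249 tested known names were below 0, with a median of -0.12. Erythrocyte names summed to 3894 to 6704 and 4228 to 5844 CPM, with 3 of 5 below 0 and a median of -0.08. Endothelial and stromal names summed to 105280 to 182468 and 109240 to 180532 CPM, with 4 of 10 below 0 and a median of 0.03. For hepatocyte names 10 of 12 were below 0 with a median of -0.11. Muscle names stayed at 14.6 to 30.0 CPM in control and 17.9 to 23.3 in heat, with 4 of 4 below 0 and a median of -0.22. Retina and neural names summed to 1308 to 7061 and 2583 to 3225 CPM, nearly all of it miR-128-y, with 4 of 7 below 0 and a median of -0.12. edgeR called 0 names in each of these lists, and 0 had an unadjusted p under 0.05. With the 249 known names fitted alone, 2 had an unadjusted p under 0.05 and 0 were called, so these counts do not set the lists apart.

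The names with the lowest p in these lists were likewise not called by edgeR. Their log2 fold changes were -0.62 ± 0.48 for miR-194-y, 0.29 ± 0.25 for miR-215-x and -0.39 ± 0.53 for miR-122-y of hepatocytes (SE). In the pancreas list they were 0.62 ± 0.27 for miR-375-y, -2.12 ± 0.98 for miR-217-x and -0.53 ± 0.43 for miR-7-x (SE). Erythrocyte miR-144-y had 0.47 ± 0.25, miR-486-x -2.01 ± 1.06 and miR-451-x -0.16 ± 0.32 (SE). Leukocyte miR-146-y had -0.50 ± 0.30, miR-223-x -0.58 ± 0.44 and miR-155-x -0.63 ± 0.48 (SE). Stromal miR-199-y had -0.35 ± 0.27, miR-145-x 0.26 ± 0.26 and miR-214-x -0.28 ± 0.36 (SE). Muscle miR-133-z, miR-1-z and miR-206-y had -0.27 ± 0.42, -0.27 ± 0.45 and -0.17 ± 1.11, and neural miR-128-y, miR-124-y and miR-9-z had -0.66 ± 0.53, 0.36 ± 0.37 and -0.41 ± 0.50 (SE).

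**Figure D5:**
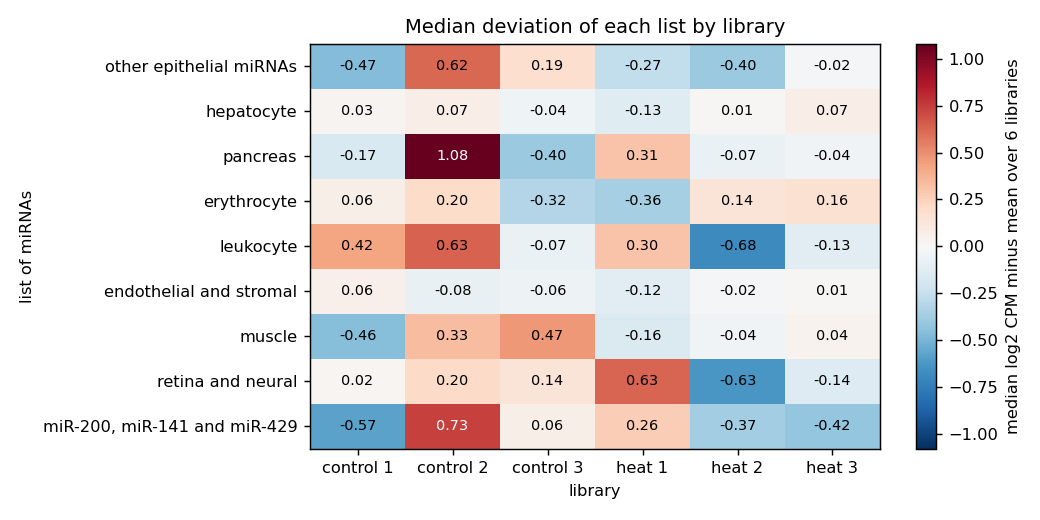
Median over the tested names of each list of log2 CPM minus the mean over the 6 libraries, by library. Control replicate 2 is at 1.08 for pancreas, 0.73 for the miR-200, miR-141 and miR-429 names, 0.63 for leukocyte and 0.62 for other epithelial names, and at 0.07 for hepatocyte names.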

How the data were processed

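Small RNA counts came from 6 liver libraries, grouped and numbered by their titles. Per the labels' protocols one field describes retina and an rRNA-depleted preparation, which does not match a small RNA library. No aligner, miRNA database or small RNA kit was given in the sources used here. Each file gives, per the file headers, a name, a length, a sequence, a count and a TPM value. The whole-number counts were used as deposited by the authors, with 2 as the smallest count above 0. The TPM column was not used.

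Counts were fitted with edgeR 4.0.16 under R 4.3.3. Low names were removed by filterByExpr (minimum count 10), libraries were scaled by TMM, and the robust quasi-likelihood test was adjusted by Benjamini-Hochberg over all 651 names (threshold 0.05). The SE came from the fold change and its F statistic. Alternatives used DESeq2 1.42.0, limma 3.58.1, other scaling and filters, left-out libraries and a replicate block. Ratios between members used counts plus 0.5 and exact permutation. Duplexes were computed with ViennaRNA 2.7.2, and figures with matplotlib 3.10.9. The script was tested on simulated data. The members and lists were chosen with earlier results of these data known. Named by rule were all members, names sharing a seed, the 3 nearest known names per member, and the 3 names with the lowest p per list. Further names of the lists were added as examples, among them miR-96-x, miR-205-x, miR-216-x and miR-150-x, several for their level in control replicate 2. Outside the lists, miR-107-x and miR-8159-x were added for their excess in that library. Reads lacking molecular identifiers cannot be counted as separate molecules, so binomial intervals cover counting error only.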

Additional observations from a re-analysis of the deposited data

How the results depend on the processing

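No member passed the threshold in any of 17 alternative settings (85 values, adjusted p from 0.639 to 1), and 19 values changed sign. edgeR's count of 0 called names became 2 with the DESeq2 Wald test on all names, 2 with it after the count filter and 23 with edgeR without a filter; it was 0 with each library left out, 0 with the replicate block (33 names at an unadjusted p under 0.05) and 0 in every other setting. Same-numbered libraries showed no sign of pairing, with correlations of 0.08, -0.19 and 0.15 and 2 of 6 libraries closest to their own number. With 3 libraries per group this cannot exclude a pairing. Under the replicate block miR-200-x was at -0.091, miR-200-z moved from -1.67 to -0.89 and miR-429-y from -0.99 to -0.34, and the sign of the other members held.

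With 1 library left out, log2 fold changes ran from -0.59 to 0.036 for miR-200-y, from -0.39 to 0.065 for miR-141-y, from -2.19 to 0.024 for miR-200-z, from -1.46 to 0.55 for miR-429-y and from -0.48 to 0.23 for miR-200-x. For the first 4 the low end was without control replicate 1, and leaving out control replicate 2 turned the sign. The log2 ratio of the summed level, -0.36, ran from -0.63 to 0.051. Quality weights reversed miR-141-y (0.11), miR-429-y (0.088) and miR-200-x (-0.28), and moved miR-200-z to -0.30. edgeR's unadjusted p was 0.0127 for miR-200-z without control replicate 1 (adjusted p = 0.975) and 0.0274 for miR-429-y without a filter (adjusted p = 0.713). miR-200-x, fitted at 0.0015, was also at -0.022 with DESeq2 size factors, -0.020 and -0.019 with the DESeq2 test on all and on filtered names, -0.0100 without a filter, -0.018 with a minimum count of 20 and -0.013 with each sequence counted once. Without control replicate 2 and heat replicate 1 together, miR-429-y was at 0.23 and miR-200-x at -0.41.

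Ratios between members with 1 library left out ran, as heat minus control in log2, from -1.19 to 0.088 (miR-200-z to miR-200-y), -0.45 to 0.50 (miR-429-y to miR-200-y), -0.029 to 0.51 (miR-200-x to miR-200-y), 0.057 to 0.34 (miR-141-y to miR-200-y), -1.39 to 0.031 (miR-200-z to miR-141-y), -0.76 to 0.44 (miR-429-y to miR-141-y), -0.37 to 0.32 (miR-200-x to miR-141-y), 0.41 to 0.73 (miR-429-y to miR-200-z), -0.11 to 1.70 (miR-200-x to miR-200-z) and -0.52 to 0.97 (miR-200-x to miR-429-y). Without both libraries the first 3 were 0.045, 0.45 and -0.21, miR-429-y to miR-141-y was 0.25, and miR-200-x to miR-200-z and to miR-429-y were -0.26 and -0.66. The sign of miR-429-y to miR-200-z held in all settings. The cause of these shifts was not tested.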
